A study of Homo sapiens with 18 samples.

Results

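The genes described here are 35 interferon response genes, chosen by name as textbook targets of type I interferon signalling. The list was chosen with earlier results of these data known. The rule itself uses a measured value only to take the brightest probe set of a symbol. A member was measured where a probe set carried its symbol alone. 34 of the 35 were measured, each by 1 probe set, among 18377 genes in all, and STAT2 was not analysed here. A549, a human lung carcinoma line, was transfected with siRNA against 2 atypical protein kinase C isoforms (siPKCiz, for PKCiota and PKCzeta) or with control siRNA (siControl). Cells were serum starved, met 250 pM TGFβ for 1 h, were washed, and stayed for a further 7 or 23 h in medium with 0.2% serum. The 6 groups, of 3 biological replicates each, were siPKCiz untreated, siPKCiz with TGFβ at 8 h, siPKCiz with TGFβ at 24 h, siControl untreated, siControl with TGFβ at 8 h and siControl with TGFβ at 24 h. All 18 arrays come from 1 cell line, every group including the controls carried a transfected siRNA, and the labels give the untreated arrays no time.

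Type I interferons signal through a cell surface receptor and the kinases JAK1 and TYK2 to a transcription factor complex that contains IRF9 and binds the interferon-stimulated response element in target promoters. The targets include sensors of viral RNA such as RIG-I, enzymes that trigger or carry out RNA decay, proteins that bind viral RNA or capsids, and the ubiquitin-like modifier ISG15 with its ligases and protease. Many airway epithelial cells keep low levels of these genes without infection, and the amount of this basal expression differs between genes.

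The promoters are shown first because they carry the sequence that defines most of these targets. RefSeq promoter windows (build GRCh38.p14, from 250 bases before to 50 bases after the start of the gene) were matched by symbol to 28 of the 34 measured members. Where a symbol had more than 1 window, the first by chromosome and position was kept. The core response element was searched as GAAANNGAAA on both strands. It was found in 18 of the 28 windows (64.3%), against 3.05% of the 14210 windows of all measured genes. The longer form GAAANNGAAACT, which contains the core, was found in 12 of 28 (42.9%), against 0.317% of all windows. A version of the core with 1 base between the repeats, GAAANGAAA, was added after the sequences had been seen. It was found in 11 of 28 (39.3%), against 2.91%, and either spacing was found in 23 of 28, against 5.64%. The core stood in 8 of the 13 windows of members that passed a test reported below and in 10 of the 15 windows of the other members.

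The promoters of 6 genes are printed, those whose values recur below, with capitals on every match to GAAANNGAAA or GAAANGAAA on either strand. OAS1 (chr12:112906712-112907011, + strand) and RIGI (chr9:32526147-32526446, - strand) hold only the version with 1 base between the repeats. In OAS1 it spans -17 to -9 from the start of the gene, and in RIGI -203 to -195. IFIT1 (chr10:89392373-89392672, + strand) holds 2 cores, at -116 to -107 and at -103 to -94. HERC5 (chr4:88456869-88457168, + strand) holds 3, of which the first 2 overlap. SAMD9 (chr7:93117930-93118229, - strand) holds the core at -136 to -127, overlapping a match with the shorter spacing. Its neighbour and paralogue SAMD9L (chr7:93148336-93148635, - strand) holds no exact match to either form in this window, and no other window was searched. A match describes the letters of the window and does not show that the site is bound.
OAS1: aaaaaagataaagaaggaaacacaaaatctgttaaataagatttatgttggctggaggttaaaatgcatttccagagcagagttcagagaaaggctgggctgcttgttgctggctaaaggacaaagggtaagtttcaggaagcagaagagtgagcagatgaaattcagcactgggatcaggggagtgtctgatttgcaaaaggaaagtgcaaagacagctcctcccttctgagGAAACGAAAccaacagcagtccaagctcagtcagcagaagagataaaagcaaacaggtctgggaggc
RIGI: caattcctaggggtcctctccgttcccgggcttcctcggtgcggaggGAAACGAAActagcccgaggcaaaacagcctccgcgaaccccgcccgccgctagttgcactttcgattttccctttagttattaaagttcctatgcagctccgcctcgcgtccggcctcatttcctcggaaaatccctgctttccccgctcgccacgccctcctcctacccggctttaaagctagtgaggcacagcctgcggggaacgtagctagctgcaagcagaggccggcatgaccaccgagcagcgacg
IFIT1: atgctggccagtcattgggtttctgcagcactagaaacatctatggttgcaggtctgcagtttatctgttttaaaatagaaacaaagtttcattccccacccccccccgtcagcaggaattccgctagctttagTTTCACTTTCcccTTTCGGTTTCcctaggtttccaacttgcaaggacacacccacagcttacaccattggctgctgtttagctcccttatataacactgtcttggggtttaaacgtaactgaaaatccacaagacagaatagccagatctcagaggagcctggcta
HERC5: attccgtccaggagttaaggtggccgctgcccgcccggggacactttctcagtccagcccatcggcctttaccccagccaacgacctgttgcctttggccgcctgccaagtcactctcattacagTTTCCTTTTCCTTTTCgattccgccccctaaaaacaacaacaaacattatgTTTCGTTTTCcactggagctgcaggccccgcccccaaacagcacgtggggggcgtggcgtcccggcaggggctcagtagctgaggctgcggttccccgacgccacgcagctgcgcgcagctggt
SAMD9: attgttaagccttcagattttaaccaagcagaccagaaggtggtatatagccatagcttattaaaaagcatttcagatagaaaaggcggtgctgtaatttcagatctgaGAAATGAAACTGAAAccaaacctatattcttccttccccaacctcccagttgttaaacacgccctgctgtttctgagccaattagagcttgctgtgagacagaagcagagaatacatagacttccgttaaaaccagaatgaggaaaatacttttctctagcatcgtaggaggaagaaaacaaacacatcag
SAMD9L: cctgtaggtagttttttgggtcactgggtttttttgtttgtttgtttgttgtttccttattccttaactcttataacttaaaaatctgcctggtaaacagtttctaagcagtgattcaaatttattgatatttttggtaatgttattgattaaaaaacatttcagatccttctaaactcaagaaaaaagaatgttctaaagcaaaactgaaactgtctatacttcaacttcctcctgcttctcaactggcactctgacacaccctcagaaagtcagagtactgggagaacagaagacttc

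Both silenced kinases were lower in the silenced arm. PRKCI, which encodes PKCiota, lay between 457 and 621 in siPKCiz cells against 2095 to 2818 in siControl cells (RMA intensity, n = 9 arrays each), and PRKCZ, for PKCzeta, between 142 and 254 in siPKCiz cells against 265 to 490 in siControl cells. All 9 epithelial and A549 markers were brighter than the median probe set, as were 1 of 8 leukocyte, 2 of 8 fibroblast and 0 of 7 endothelial markers. With TGFβ at 24 h, 4 of the 9 epithelial markers fell in siPKCiz cells at a limma adjusted p under 0.05 (44.4%, against 6.09% of all genes). For siControl cells 5 fell (55.6%, against 6.46% of all genes), and CLDN4 rose in both arms. The summed level of the 9 epithelial markers was 32780 to 38660 in siPKCiz and 32550 to 38970 in siControl cells at 24 h of TGFβ. It was 42130 to 50990 and 37330 to 54310 in the untreated cells of the same arms. On the log2 scale (± SE) CDH1 (E-cadherin) fell by 1.37 ± 0.17 in siPKCiz and by 1.62 ± 0.17 in siControl cells, and KRT19 by 0.90 ± 0.12 and 1.07 ± 0.12. Over the mean of the conditions EPCAM, CDH1 and KRT19 were higher in siPKCiz cells, by 0.76 ± 0.16, 0.49 ± 0.10 and 0.25 ± 0.07. These 3 of the 9 made up 33.3%, against 11.8% of all genes called higher, and CLDN4 differed by -0.24 ± 0.11 without passing. Among the 8 fibroblast markers LUM differed by 0.55 ± 0.08 and THY1 by -0.65 ± 0.08 over the same mean (25% called, against 19.9% of all genes). The summed fibroblast markers were 1318 to 1442 in siPKCiz and 1372 to 1402 in siControl cells at 24 h of TGFβ, against 979 to 1081 and 1075 to 1198 in the untreated cells of the same arms. Among them LUM rose at 24 h by 0.84 ± 0.14 in siPKCiz and by 1.28 ± 0.14 in siControl cells, and the part of these marker shifts in the results below was not tested. In bulk RNA, fewer expressing cells and less RNA per cell cannot be told apart. In each of the 6 groups replicates 2 and 3 resembled each other most (Pearson correlation over genes 0.996 to 0.998), while replicate 1 correlated with them at 0.992 to 0.995. Results that turn on replicate 1 are therefore given with and without it.

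Levels across the program were uneven. Of the 34 members, 17 were brighter on average than the median probe set (7.31 on the log2 scale) and 17 were dimmer. OAS1, an enzyme that makes the oligoadenylate activator of RNase L, was the brightest at a mean of 1592 over all arrays, at the 84.5th percentile of all genes. SAMD9, an antiviral restriction factor, followed at 1121, and PARP14, a mono-ADP-ribosyltransferase, at 963. IFI6, OAS3, IFIT5, RIGI and USP18 averaged between 592 and 654. At the dim end stood BST2 (tetherin, which holds budding virions at the cell surface) at 51.3, MX2 at 57.6, IFI44 at 58.5 and RSAD2 (viperin) at 60.3. ISG15 averaged 112, IFIT1 98.0 and MX1 75.7, all below the median probe set. Intensities of different probe sets depend on their probes, so this order describes the arrays and not transcript numbers. IFNB1, the gene of interferon beta, lay between 40.3 and 48.7 on all 18 arrays.

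**Figure D1:**
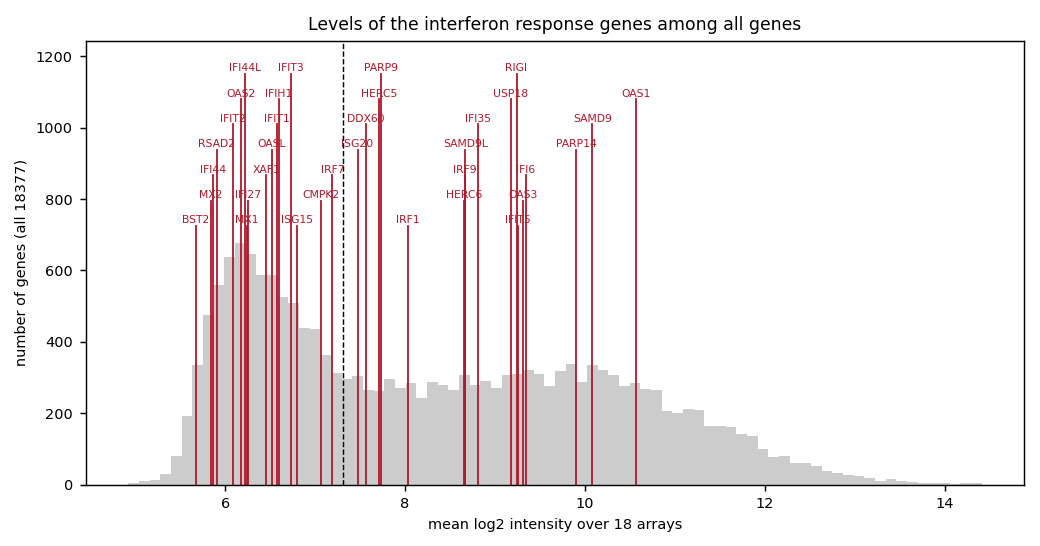
Mean log2 intensity over 18 arrays for all 18377 genes (grey histogram, number of genes per bin) with each of the 34 measured interferon response genes as a vertical line under its name. The dashed line is the median of all probe sets, 7.31, and the members split 17 above and 17 below it.

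The first question was what TGFβ did to the program in each arm, as a change from untreated cells on the log2 scale with its standard error. In siControl cells at 8 h, 8 members fell and 2 rose at a limma adjusted p under 0.05. The lower calls were 23.5% of the 34, against 6.18% of all genes, and the higher calls 5.88%, against 5.17%. Together they made up 29.4% of the members, against 11.4% of all genes in this comparison. The median member changed by -0.09 against 0.00 for all genes. At 24 h in siControl cells 4 fell and 2 rose (17.6%, against 12.3% of all genes, of which 6.46% lower and 5.85% higher), with a median change of -0.12 against -0.01. In siPKCiz cells at 8 h 3 fell and 1 rose (11.8%, against 6.48% of all genes, of which 3.35% lower and 3.13% higher), with a median of -0.12 against 0.00. At 24 h in siPKCiz cells 4 fell and 2 rose (17.6%, against 10.7% of all genes, of which 6.09% lower and 4.65% higher), with a median of -0.08 against -0.01. The shares of members were not tested against those of all genes. Centring each array on its median left the members' counts in siPKCiz cells as they were, but turned the split over all genes to 746 higher and 450 lower at 8 h and 1066 higher and 757 lower at 24 h, against 575 and 616, and 855 and 1119. The 8 h and 24 h comparisons of an arm share its untreated arrays. In all, 10 members fell and 3 rose in 1 or more of the 4 comparisons, and IFIT1 and SAMD9 passed in all 4. The shares of all genes that passed in 1 or more of the 4, or in all 4, were not computed. These pooled counts therefore have no background to be read against. The counts depended on which replicates were used. In siControl cells 13 members passed at 8 h without replicate 1 (1 higher and 12 lower, against 15.9% of all genes, 5.71% higher and 10.2% lower). Without replicate 2 there were 3 (3.71% of all genes) and without replicate 3 there were 2 (4.36%). At 24 h 15 passed without replicate 1 (3 higher and 12 lower, against 15.6% of all genes, 6.64% higher and 8.99% lower), 2 without replicate 2 (4.14%) and 3 without replicate 3 (4.11%). In siPKCiz cells the counts without replicates 1, 2 and 3 were 3, 2 and 3 at 8 h, where 6.11%, 1.94% and 1.76% of all genes passed. At 24 h they were 8, 4 and 4, where 9.45%, 4.42% and 4.24% of all genes passed. The share of all genes called moved with the replicates too. The TGFβ and untreated arrays of siControl cells were wholly apart for 14 of 34 members at 8 h and 13 at 24 h, against 25.3% and 25.5% of all genes. For siPKCiz cells they were apart for 9 members at 8 h and 14 at 24 h, against 25% and 31%. Groups that do not overlap, as reported below for single members, were thus common over all genes.

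**Figure D2:**
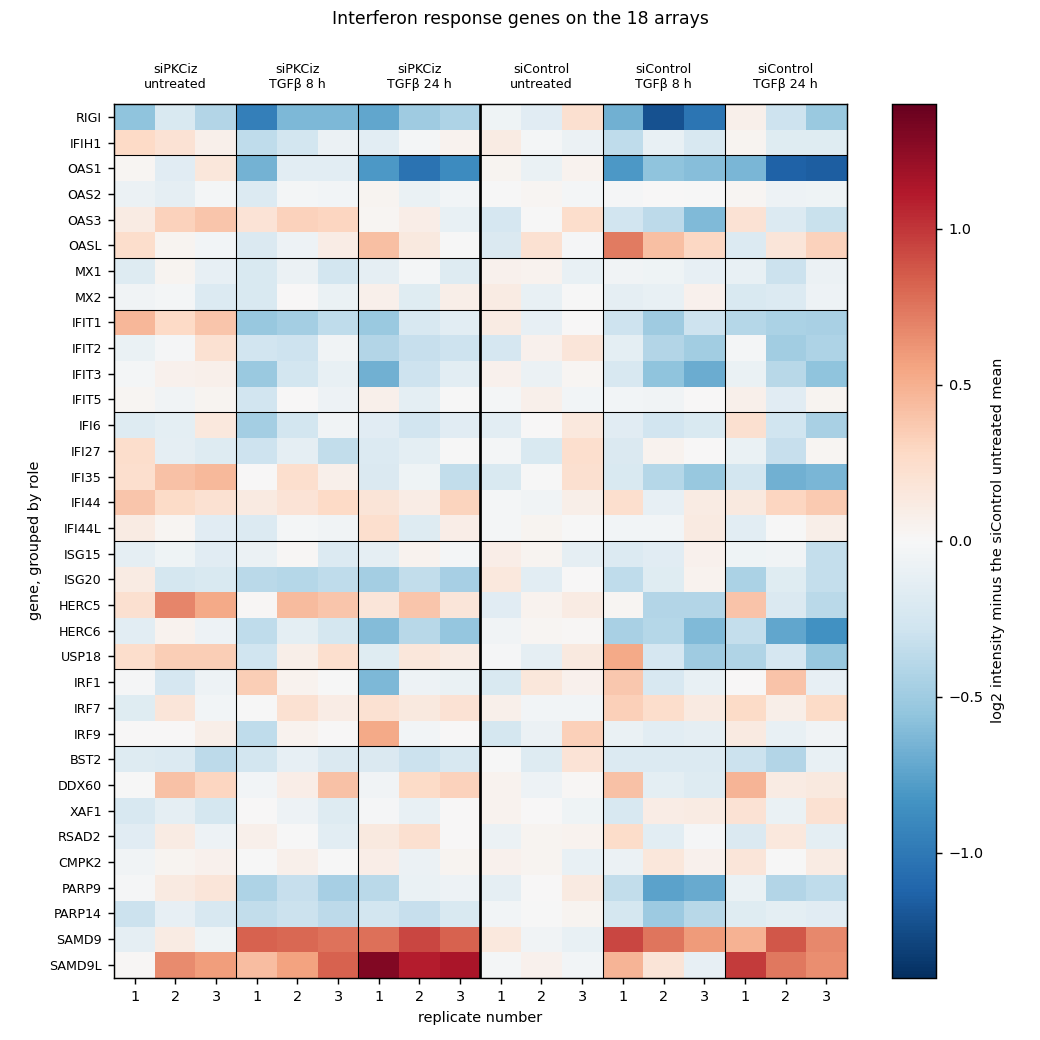
Log2 intensity of the 34 measured members (down the page, grouped by role) on each of the 18 arrays (across, by group and replicate number), as the difference from the mean of the siControl untreated arrays. Red is higher and blue is lower: OAS1, HERC6 and IFIT1 are blue under TGFβ, SAMD9 and SAMD9L are red, and most other lines are pale.

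Among the sensors of double-stranded RNA, RIGI moved at the early time. RIGI encodes RIG-I, the helicase that detects RNA with a triphosphate end. In siPKCiz cells it measured 573, 727 and 636 untreated, 435, 547 and 547 at 8 h, and 511, 598 and 627 at 24 h. In siControl cells it measured 810, 758 and 985 untreated, 530.5, 363 and 415 at 8 h, and 891, 694 and 590.2 at 24 h (values in the order of replicates 1 to 3, here and below). All 3 siControl arrays at 8 h lay below all 3 untreated ones, and the 24 h arrays overlapped the untreated range. RIGI fell by 0.97 ± 0.16 at 8 h in siControl cells (limma adjusted p = 0.0004042), a 1.96-fold lower level. In siPKCiz cells at 8 h it changed by -0.34 ± 0.16 (adjusted p = 0.2597). From 8 h to 24 h in siControl cells RIGI rose by 0.73 ± 0.16 (adjusted p = 0.01872). That rise did not pass without replicate 1 or 2 of the 24 h arrays or replicate 2 or 3 of the 8 h arrays, with changes of 0.57, 0.75, 0.61 and 0.70. Only 2 members, RIGI and SAMD9L, passed between 24 h and 8 h in siControl cells, where 2.41% of all genes did (1.31% higher). None did in siPKCiz cells, where 0.805% of all genes passed in limma. At an unadjusted p under 0.05 there were 5 members in that comparison (14.7%, against 12.2% of all genes).

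IFIH1 encodes MDA5, the sensor of long double-stranded RNA, and was dim. At 8 h it measured 79.6, 85.4 and 95.9 with TGFβ in siPKCiz cells, against 123, 117 and 107 in untreated siPKCiz cells. The groups did not overlap, and IFIH1 fell by 0.41 ± 0.09 (adjusted p = 0.01074). The call was lost without replicate 1 of the untreated or of the TGFβ arrays, at -0.37 and -0.35, and without replicate 1 throughout, at -0.30. In siControl cells at 8 h IFIH1 changed by -0.23 ± 0.09 (adjusted p = 0.1434).

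The oligoadenylate synthetases make the second messenger that activates RNase L. OAS1 measured 2157, 1902 and 2363 untreated, 1340.4, 1909 and 1913 at 8 h, and 1215, 1030.4 and 1149 at 24 h in siPKCiz cells. The siControl arrays read 2168, 1991 and 2199 untreated, 1212, 1430.3 and 1403 at 8 h, and 1357, 967 and 949 at 24 h. Every array at 24 h in either arm lay below every untreated array. OAS1 fell by 0.92 ± 0.14 at 24 h in siPKCiz cells and by 0.98 ± 0.14 at 24 h in siControl cells (adjusted p = 0.0002712 and 0.0001177). At 8 h it fell by 0.65 ± 0.14 in siControl cells (adjusted p = 0.004598) and changed by -0.33 ± 0.14 in siPKCiz cells (adjusted p = 0.2225), where replicate 2 at 1909 and replicate 3 at 1913 lay close to the lowest untreated array. 

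OAS3, the synthetase of long oligoadenylates, measured 722, 791 and 778 at 8 h in siPKCiz cells, against 687, 790.1 and 826 untreated. In the siControl arm the values were 524, 490.3 and 413 at 8 h, against 538, 628 and 748 untreated. Only the siControl groups stood apart. OAS3 fell by 0.42 ± 0.13 there (adjusted p = 0.0489), and the call was lost without replicate 2 or 3 of the TGFβ arrays (-0.44 and -0.32) or of the untreated arrays (-0.42 and -0.29). OASL, a catalytically inactive relative that enhances RIG-I signalling, went the other way and rose by 0.48 ± 0.15 at 8 h in siControl cells (adjusted p = 0.04376). It measured 139, 112 and 102 there, against 72.9, 97.1 and 83.1 untreated. The groups did not overlap, but the call was lost without replicate 1 or 2 of the TGFβ arrays (0.35 and 0.51), without replicate 1 or 3 of the untreated arrays (0.38 and 0.47), and without replicate 1 throughout (0.25). OAS2, which lay between 64.9 and 76.2 on all arrays, passed in no comparison.

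Among the IFIT proteins, IFIT1 binds RNA whose end lacks the host cap methylation. IFIT1 measured 151, 133 and 143 untreated, 75.8, 78.7 and 85.3 at 8 h, and 76.1, 93.4 and 98.7 at 24 h in siPKCiz cells. For siControl the values were 118, 101 and 109.6 untreated, 89.8, 77.5 and 89.7 at 8 h, and 82.7, 80.2 and 80.1 at 24 h. All TGFβ arrays lay below all untreated arrays of their own arm. IFIT1 fell by 0.83 ± 0.10 at 8 h and by 0.68 ± 0.10 at 24 h in siPKCiz cells (adjusted p = 4.868e-05 and 0.0001166). In siControl cells it fell by 0.36 ± 0.10 at 8 h and by 0.43 ± 0.10 at 24 h (adjusted p = 0.02045 and 0.005107). The 8 h call in siControl cells was lost without untreated replicate 1 (-0.30), untreated replicate 3 (-0.35) or TGFβ replicate 2 (-0.28).

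IFIT3, which stabilises IFIT1 on RNA, measured 108, 85.1 and 77.5 at 8 h in siControl cells, against 131, 118 and 128 untreated. The groups did not overlap, and IFIT3 fell by 0.49 ± 0.15 (adjusted p = 0.03352). Leaving out any untreated array (-0.46, -0.54 and -0.48) or TGFβ replicate 2 or 3 (-0.46 and -0.39) lost the call. In siPKCiz cells at 8 h IFIT3 measured 87.7, 105 and 117, against 124, 131 and 132 untreated, a change of -0.33 ± 0.15 (adjusted p = 0.2256). Those groups did not overlap either. At 24 h IFIT3 changed by -0.41 ± 0.15 in siPKCiz and by -0.35 ± 0.15 in siControl cells (adjusted p = 0.08539 and 0.1439), again without overlap. IFIT2 and IFIT5 passed in no comparison with all arrays.

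Among the interferon-inducible IFI genes, IFI35 passed at the later time. IFI35 encodes a binding partner of the interferon-induced protein NMI. It measured 421, 463 and 382 at 24 h in siPKCiz cells, against 568, 641 and 661 untreated. In siControl cells it measured 405, 303 and 309 at 24 h, against 417, 483 and 563 untreated. Neither pair of groups overlapped, although in siControl cells the highest TGFβ array (405) lay close to the lowest untreated one (417). IFI35 fell by 0.56 ± 0.13 in siPKCiz cells and by 0.53 ± 0.13 in siControl cells (adjusted p = 0.006306 and 0.008899). The siControl call was lost without TGFβ replicate 2 or 3 (-0.45 and -0.47) or untreated replicate 3 (-0.42). At 8 h IFI35 changed by -0.26 ± 0.13 in siPKCiz and by -0.38 ± 0.13 in siControl cells (adjusted p = 0.2982 and 0.06002). From 8 h to 24 h it changed by -0.31 ± 0.13 and by -0.14 ± 0.13 (adjusted p = 0.3278 and 0.7071), so a difference between the times is not shown. IFI6, IFI27, IFI44 and IFI44L did not pass against untreated in either arm.

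HERC5 and HERC6 belong to the family of HECT-type ligases, and HERC5 is the main ligase for ISG15 in human cells. HERC6 measured 333, 387 and 347 at 24 h in siPKCiz cells, against 458, 524 and 482 untreated. The siControl arrays read 370, 385 and 330.2 at 8 h and 403, 305 and 281 at 24 h, against 489, 518 and 513 untreated. These TGFβ groups lay wholly below their untreated groups. At 8 h in siPKCiz cells HERC6 measured 397, 462 and 426, which overlapped the untreated arrays, with a change of -0.19 ± 0.11 (adjusted p = 0.424). HERC6 fell by 0.46 ± 0.11 at 24 h in siPKCiz cells, and by 0.49 ± 0.11 at 8 h and 0.64 ± 0.11 at 24 h in siControl cells (adjusted p = 0.01095, 0.006253 and 0.0006347). The siPKCiz call was lost without TGFβ replicate 1 (-0.41) or untreated replicate 2 (-0.40). ISG15, ISG20, USP18 and HERC5 did not pass for TGFβ with all arrays.

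PARP9 and its partner PARP14, both members of the ADP-ribosyltransferase family, fell early. PARP9 measured 186, 199.7 and 181 at 8 h in siPKCiz cells, against 248, 272 and 281 untreated, and 198, 149 and 153 at 8 h in siControl cells, against 229, 252 and 272 untreated. Both arms showed complete separation at 8 h. PARP9 fell by 0.50 ± 0.12 in siPKCiz cells and by 0.60 ± 0.12 in siControl cells (adjusted p = 0.01247 and 0.0019). The siPKCiz call was lost without TGFβ replicate 1 (-0.49) or untreated replicate 3 (-0.46). At 24 h the changes were -0.27 ± 0.12 in siPKCiz cells and -0.29 ± 0.12 in siControl cells (adjusted p = 0.1577 and 0.1326). PARP14 measured 946, 789 and 856 at 8 h in siControl cells, against 1095, 1115 and 1154 untreated, and fell by 0.38 ± 0.08 (adjusted p = 0.002126). In siPKCiz cells it measured 882, 913 and 867 at 8 h, against 908, 1038 and 957 untreated. Those groups overlapped, with a change of -0.12 ± 0.08 (adjusted p = 0.4416).

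The paralogous neighbours SAMD9 and SAMD9L, which restrict poxviruses and act on translation, rose, unlike most members that passed. SAMD9 measured 701, 823 and 729 untreated, 1352, 1331 and 1292 at 8 h, and 1300.2, 1452 and 1347 at 24 h in siPKCiz cells. In the siControl arm the values were 844, 737 and 711 untreated, 1456, 1279.8 and 1149.5 at 8 h, and 1068, 1388 and 1211 at 24 h. All 12 TGFβ arrays lay above all 6 untreated arrays. SAMD9 rose by 0.82 ± 0.10 at 8 h and by 0.87 ± 0.10 at 24 h in siPKCiz cells (adjusted p = 0.0001006 and 2.265e-05). In siControl cells it rose by 0.76 ± 0.10 at 8 h and by 0.67 ± 0.10 at 24 h (adjusted p = 0.0001015 and 0.0002123), which are 1.69-fold and 1.60-fold higher levels.

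SAMD9L measured 287, 448 and 423 untreated, 381, 416 and 500.1 at 8 h, and 694, 604 and 623 at 24 h in siPKCiz cells. For siControl the values were 277, 296 and 276 untreated, 393, 320.2 and 262 at 8 h, and 557, 471 and 444 at 24 h. The 24 h arrays lay above the others of their arm, and the 8 h arrays overlapped the untreated ones. SAMD9L rose by 0.75 ± 0.16 at 24 h in siPKCiz cells and by 0.79 ± 0.16 at 24 h in siControl cells (adjusted p = 0.003577 and 0.002084), while at 8 h it changed by 0.18 ± 0.16 in either arm (adjusted p = 0.6377 and 0.5666). From 8 h to 24 h it rose by 0.61 ± 0.16 in siControl cells (adjusted p = 0.04844), a call lost without any 1 of the 24 h arrays (0.51, 0.63 and 0.68) or without replicate 2 or 3 at 8 h (0.61 and 0.46).

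**Figure D3:**
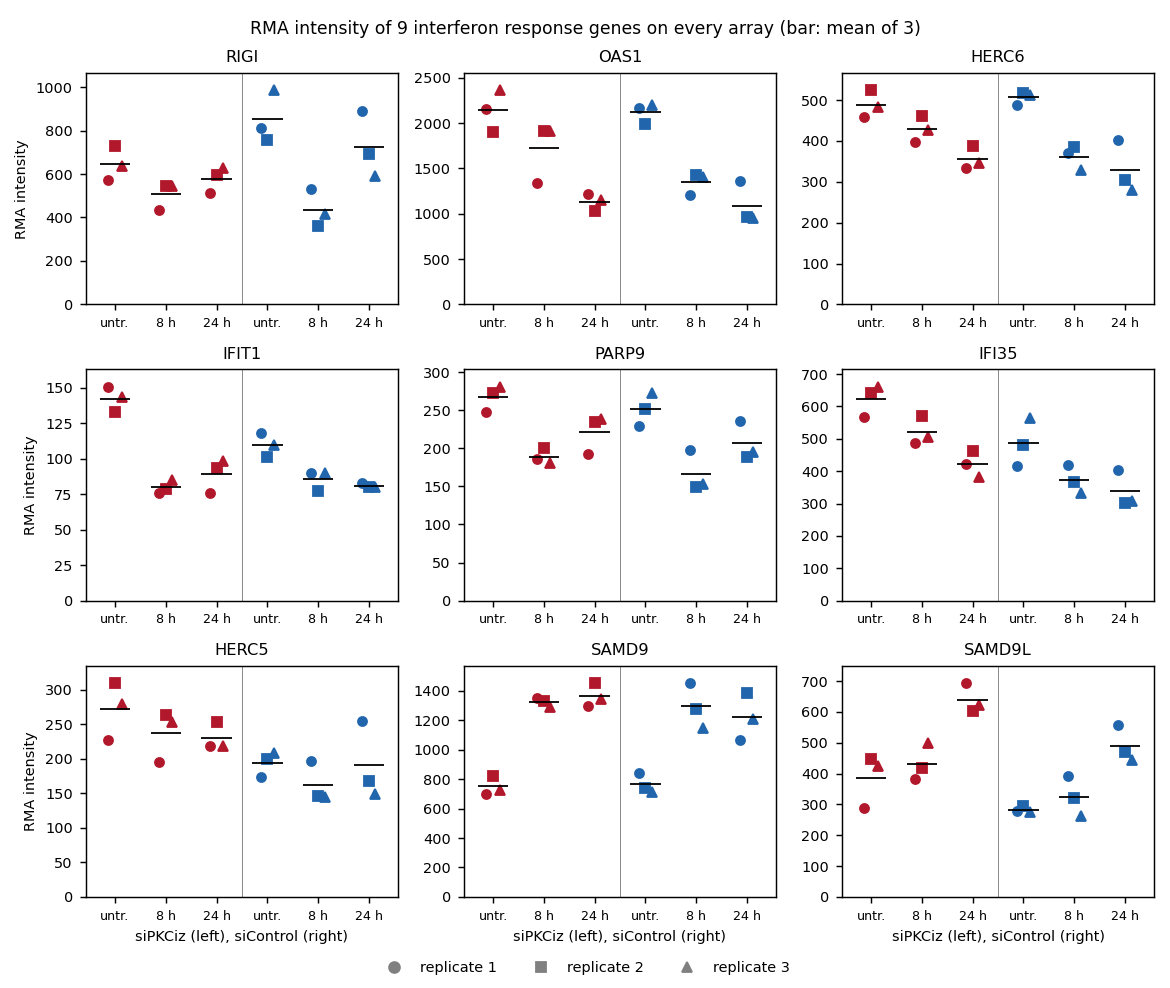
RMA intensity of 9 members on every array (points, shaped by replicate; bars are means of 3), with siPKCiz groups in red left of siControl groups in blue and untreated (untr.), 8 h and 24 h in order. OAS1, HERC6 and IFI35 step down with time, RIGI and PARP9 are lowest at 8 h, SAMD9 is already high at 8 h and SAMD9L is highest at 24 h.

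No member among the MX GTPases, the transcription factors IRF1, IRF7 and IRF9, or the effectors BST2, DDX60, XAF1, RSAD2 and CMPK2 passed against untreated in either arm. Across the 20 members that passed in no comparison of TGFβ or silencing, changes ran from -0.30 to 0.24 at 8 h in siPKCiz, from -0.38 to 0.19 at 24 h in siPKCiz, from -0.35 to 0.24 at 8 h in siControl and from -0.40 to 0.27 at 24 h in siControl cells. The median standard error of such a change over all genes was 0.10.

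**Figure D4:**
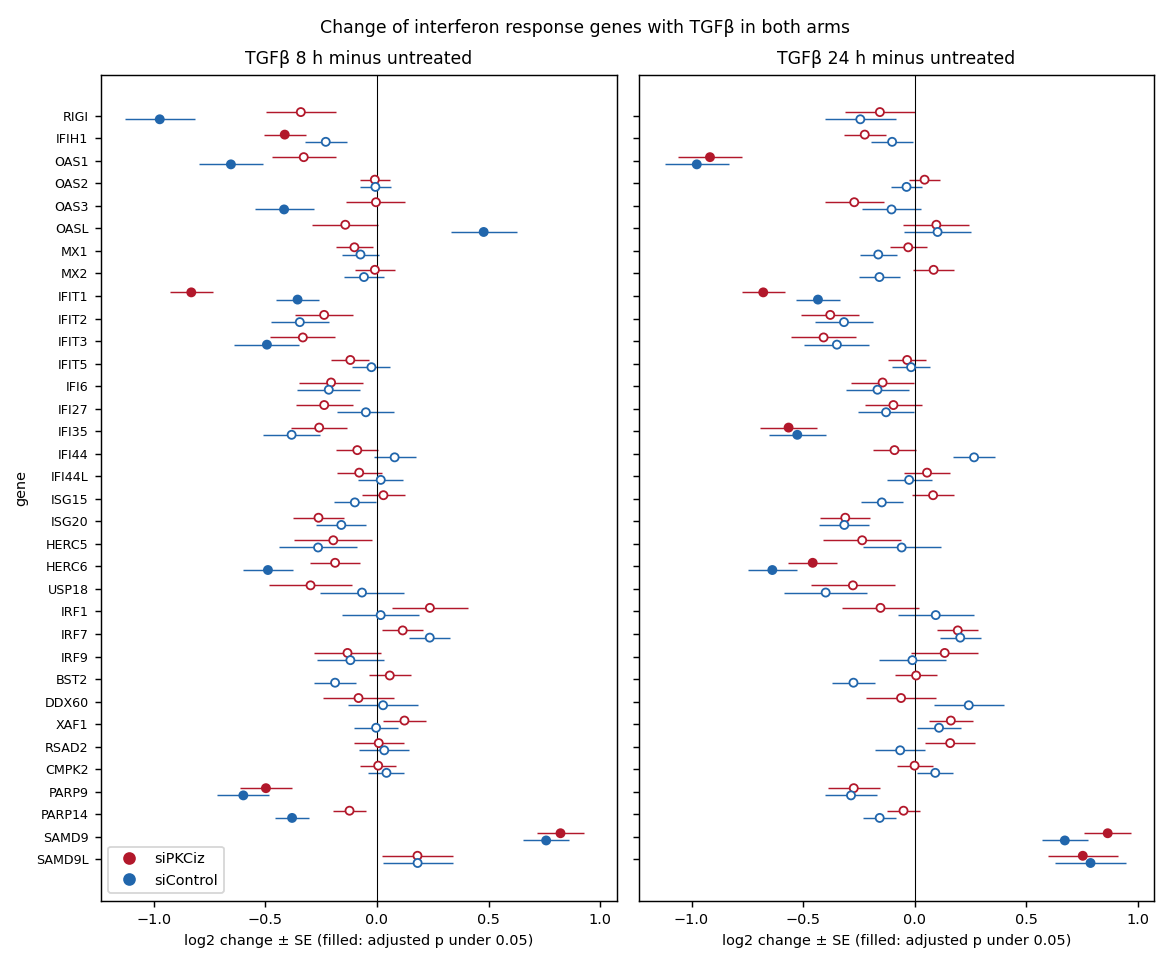
Log2 change ± SE with TGFβ at 8 h (left panel) and 24 h (right panel) against untreated for each of the 34 measured members (down the page), siPKCiz in red above siControl in blue; filled points passed at an adjusted p under 0.05. At 24 h OAS1, IFIT1, IFI35 and HERC6 are filled on the lower side in both arms, and SAMD9 and SAMD9L on the higher side.

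The second question was whether silencing of the kinases shifted the program. Over the mean of the 3 conditions, 4 members were higher in siPKCiz cells and 0 were lower, 11.8% of the 34, against 19.9% of all genes (11.8% higher and 8.17% lower). With each array centred on its median, 4 members were higher and 1 lower, and the split over all genes turned to 1475 higher and 2383 lower, against 2162 and 1502. The median member differed by 0.02 against -0.01 for all genes. In untreated cells 1 member was higher (3.58% of all genes passed, 2.12% higher). At 8 h 2 were higher and 1 lower (5.41% of all genes passed, 3.52% higher and 1.90% lower). At 24 h none passed in limma, where 3.19% of all genes did, and 3 had an unadjusted p under 0.05 (8.82%, against 15.6% of all genes). The arrays of the 2 arms were wholly apart for 9 of 34 members untreated, 6 at 8 h and 3 at 24 h. Over all genes these shares were 24.2%, 24.1% and 17.8%.

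HERC5 had the largest difference over the mean of the conditions, at 0.44 ± 0.10 (adjusted p = 0.004221). It measured 227, 309.9 and 279 untreated in siPKCiz cells, against 173, 199.9 and 209 in siControl cells. At 8 h it measured 196, 264 and 253 in siPKCiz cells, against 197, 146 and 145 in siControl cells. At 24 h it measured 218, 253 and 218 in siPKCiz cells, against 255, 168 and 149 in siControl cells. The arms stood apart without TGFβ, and overlapped at 8 h and 24 h through replicate 1. The arrays numbered replicate 1 differed by -0.01 at 8 h and by -0.23 at 24 h (siPKCiz minus siControl). The value at 24 h was opposite in sign to the mean. Replicate numbers did not pair the arrays, so these are not differences within a pair.

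SAMD9L, whose values by array stand above, was higher in siPKCiz cells by 0.41 ± 0.09 over the mean (adjusted p = 0.00341). IFI35 was higher by 0.39 ± 0.07 (adjusted p = 0.000925). At 8 h IFI35 measured 486, 571 and 506 in siPKCiz cells, against 418, 366 and 334 in siControl cells, and was higher by 0.49 ± 0.13 (adjusted p = 0.03231). That call at 8 h was lost without replicate 2 or 3 of siPKCiz (0.42 and 0.51) or of siControl (0.48 and 0.41). OAS3 was higher over the mean by 0.36 ± 0.08 (adjusted p = 0.002667), and at 8 h by 0.69 ± 0.13 (adjusted p = 0.006142), a 1.61-fold higher level. The OAS3 arrays at 8 h, given above, did not overlap between the arms. At 24 h they did, with 644, 675 and 587 in siPKCiz cells, against 725, 553 and 509 in siControl cells.

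IFIT1 was the member that passed in untreated cells, higher in siPKCiz by 0.38 ± 0.10 (adjusted p = 0.03651). The untreated arrays of the arms did not overlap, but the call was lost without replicate 1, 2 or 3 of siPKCiz (0.34, 0.43 and 0.37) or replicate 2 or 3 of siControl (0.32 and 0.38). OASL was lower in siPKCiz at 8 h by 0.54 ± 0.15 (log2 change -0.54, adjusted p = 0.042), with 72.6, 79.5 and 90.1 against 139, 112 and 102 in siControl cells. Leaving out any 1 of these 6 arrays lost that call, with changes from -0.41 to -0.63.

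The count for silencing moved with the replicate left out, as did the share of all genes. Without replicate 1, 14 members (41.2%) passed over the mean of the conditions, 11 higher and 3 lower, against 31.4% of all genes (18.9% higher and 12.5% lower). Without replicate 2 none passed, where 4.55% of all genes did, and without replicate 3 2 passed (5.88%), where 4.56% did. The members' share was thus below that of all genes with all replicates and above it without replicate 1. Without replicate 2 or 3 the counts of 0 and 2 members are too few to place their share against that of all genes. The 4 members called with all arrays kept their direction in each case. HERC5 differed by 0.64, 0.32 and 0.37 without replicates 1, 2 and 3, SAMD9L by 0.56, 0.39 and 0.28, IFI35 by 0.47, 0.31 and 0.40, and OAS3 by 0.43, 0.32 and 0.33. In single conditions without replicate 1, 4 members passed untreated (8.23% of all genes), 13 at 8 h (11 higher, against 19.0% of all genes) and 6 at 24 h, all higher (11.3%).

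USP18 and DDX60 were chosen for mention after their values were seen. USP18, the protease that removes ISG15 and dampens the interferon receptor, measured 485, 620 and 690 at 8 h in siPKCiz cells, against 848, 499 and 415 in siControl cells. Replicate 1 ran against the other pair. Without replicate 1 USP18 was higher in siPKCiz over the mean by 0.46 ± 0.07 (adjusted p = 0.000101), and DDX60, a helicase reported to aid RNA sensing, by 0.32 ± 0.06 (adjusted p = 0.000518). With all replicates neither passed.

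**Figure D5:**
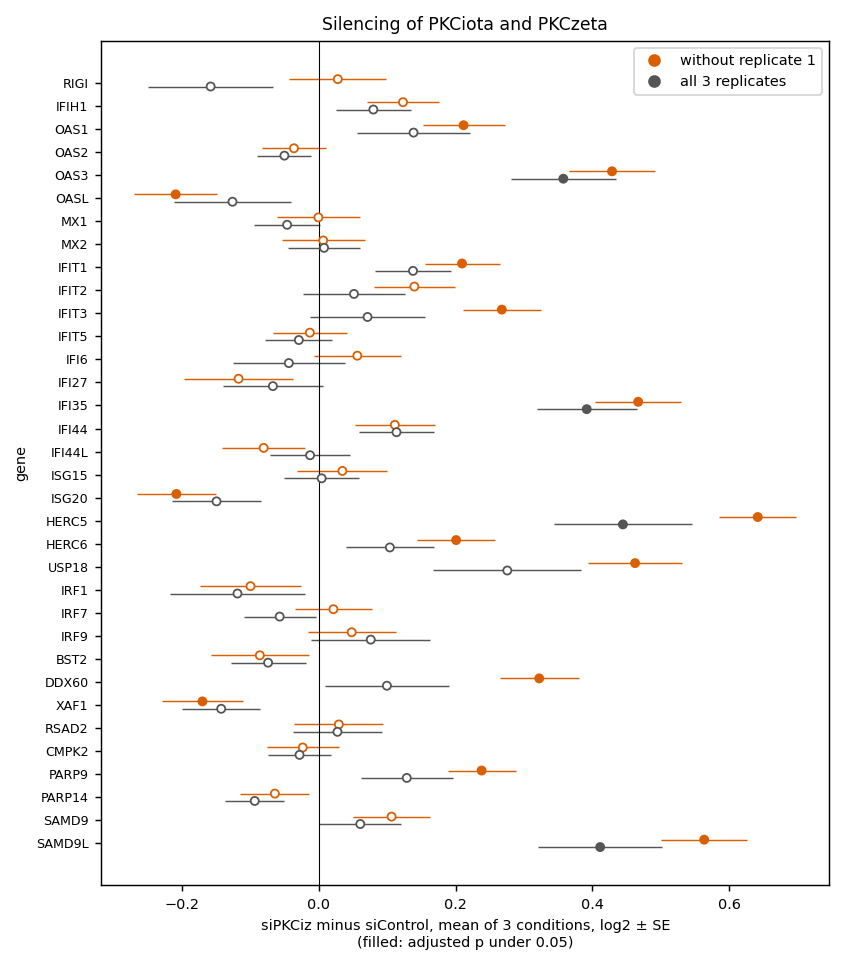
Log2 difference ± SE of siPKCiz minus siControl, as the mean of 3 conditions, for each of the 34 measured members (down the page), without replicate 1 in orange above all 3 replicates in grey; filled points passed at an adjusted p under 0.05. Filled grey points are OAS3, IFI35, HERC5 and SAMD9L; 14 orange points are filled.

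The third question was whether silencing altered the response to TGFβ, tested as an interaction. No member and no gene of the 18377 passed at 8 h or at 24 h in limma (0% called), with an adjusted p of 0.9997 for every member named here. At an unadjusted p under 0.05 there were 5 members at 8 h (14.7%, against 3.40% of all genes) and 1 at 24 h (2.94%, against 3.84%). IFIT1 stood farthest from 0 relative to its error, with a change at 8 h in siPKCiz cells minus that in siControl cells of -0.48 ± 0.14 (95% interval -0.76 to -0.19). For RIGI the difference was 0.63 ± 0.22 (0.16 to 1.10) and for OASL -0.62 ± 0.21 (-1.06 to -0.18). A member past the threshold in 1 arm only is thus not shown to differ between the arms. Without replicate 1 no member passed either, while 0.316% and 0.435% of all genes did at 8 h and 24 h.

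Genes around the program were read from lists chosen by function. None of 11 measured interferon ligand genes passed in any comparison, where 0% (interactions) to 19.9% (silencing over the mean) of all genes did. Of 15 receptor and JAK-STAT genes, TGFβ lowered 1 at 8 h and 2 at 24 h in siPKCiz cells, and 2 at each time in siControl cells, with none higher. These were 6.67% and 13.3% of the list in siPKCiz cells, against 6.48% and 10.7% of all genes, and 13.3% at each time in siControl cells, against 11.4% and 12.3%, which is close to the background. Over the mean of the conditions silencing gave 2 higher and 3 lower of the 15 (33.3%, against 19.9% of all genes). PTPN6, the phosphatase SHP-1 that restrains JAK signalling, was among them each time. It fell by 0.65 ± 0.12 at 8 h and 0.53 ± 0.12 at 24 h in siPKCiz cells, and by 0.74 ± 0.12 and 0.73 ± 0.12 in siControl cells (adjusted p = 0.001759, 0.004977, 0.0002956 and 0.0002845). Of 17 genes of nucleic acid sensing, TLR3, the endosomal sensor of double-stranded RNA, fell at 24 h by 0.61 ± 0.15 in siPKCiz and by 0.54 ± 0.15 in siControl cells (adjusted p = 0.0138 and 0.02679). CGAS, the sensor of cytosolic DNA, rose at 24 h in siPKCiz cells by 0.28 ± 0.08 (adjusted p = 0.02507). The calls at 24 h were 11.8% of the list in siPKCiz and 5.88% in siControl cells, against 10.7% and 12.3% of all genes. None of the 17 passed for TGFβ at 8 h, where 6.48% of all genes passed in siPKCiz and 11.4% in siControl cells. At an unadjusted p under 0.05 there were 4 (23.5%, against 17.9% of all genes) and 5 (29.4%, against 22.9%). For silencing over the mean 1 of the 17 was higher and 2 lower (17.6%, against 19.9% of all genes).

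Of 46 other interferon-stimulated genes, 1 rose and 5 fell at 24 h with TGFβ in siPKCiz cells (10.7% of all genes passed), and 1 rose and 4 fell in siControl cells (12.3% of all genes passed). The membrane protein IFITM2, which blocks virus entry, measured 657, 593 and 584 at 24 h in siPKCiz cells, against 923, 1030.5 and 1253 untreated. In siControl cells it measured 678, 533 and 552 at 24 h, against 1013.5, 1234 and 1186 untreated. All 24 h arrays lay below all untreated ones, and IFITM2 fell by 0.80 ± 0.14 in siPKCiz and 0.97 ± 0.14 in siControl cells (adjusted p = 0.0007725 and 9.47e-05). Its neighbour IFITM1 fell by 0.52 ± 0.14 in either arm (adjusted p = 0.01809 and 0.01521). DDX60L, a paralogue of DDX60, rose at 24 h by 0.77 ± 0.14 in siPKCiz and by 0.66 ± 0.14 in siControl cells (adjusted p = 0.0008636 and 0.002651). Silencing raised TRIM5, which restricts retroviral capsids, by 0.40 ± 0.05 and LAMP3, a lysosomal membrane protein, by 0.46 ± 0.06 over the mean of the conditions (adjusted p = 1.829e-05 and 1.511e-05). Over that mean 4 of the 46 were higher and 3 lower (15.2%, against 19.9% of all genes). Of 14 antigen presentation genes 1 was higher and 3 lower (28.6%). The higher gene was HLA-DMA, which loads peptides on class II molecules, by 0.63 ± 0.06 (adjusted p = 1.785e-06). The peptide transporter TAP1 was lower by 0.34 ± 0.05 (log2 change -0.34, adjusted p = 0.0002163).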

How the data were processed

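RNA from 18 A549 cultures was measured on Affymetrix whole-transcript arrays. The deposited values are RMA intensity on a linear scale (21.2 to 51230, array medians 156.1 to 160.7), made by the authors with RMA and Partek per the submitters' processing notes; versions are not given in the sources used here. Log2 was taken once. Of 28869 probe sets, 19310 carry 1 symbol, 1752 several and 7807 none listed; the brightest probe set per symbol was kept, giving 18377 genes. Each gene was fitted with limma 3.58.1 (R 4.3.3) on 6 group means over all arrays, with Benjamini-Hochberg adjustment over all genes of a comparison and a threshold of 0.05. Changes carry the fit's standard error. The fit was tested on simulated data. Arrays have no read depth; 3 arrays per group limit the precision, and p-values measure the spread between labelled biological replicates. Values by array are given for the up to 14 called members with the largest change. They are also given for USP18, IFITM2 and TNFSF10, which lie outside that rule. The members and lists were chosen with earlier results of these data known. Alternatives were other scalings, a filter on dim genes, other fits, and leaving out arrays or replicates. Replicate numbers were checked for pairing and did not pair the arrays.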

Additional observations from a re-analysis of the deposited data

How the results depend on the processing

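With 3 arrays per group the number of members called moved with the replicates used, while no called change of a member turned its direction under any alternative run. Leaving out 1 replicate or array gave 2 to 13 members called for TGFβ at 8 h in siControl cells, 2 to 4 at 8 h in siPKCiz, 2 to 15 at 24 h in siControl and 4 to 8 at 24 h in siPKCiz cells. It gave 0 to 4 for 24 h against 8 h in siControl and 0 to 1 in siPKCiz cells. For silencing it gave 0 to 4 in untreated cells, 0 to 13 at 8 h, 0 to 6 at 24 h and 0 to 14 over the mean of the conditions, and for both interactions 0. The replicate numbers did not pair the arrays: 7 of 45 pairs with the same number had deviations correlated over 0.1 (range -0.514 to 0.258). With the replicate number as a block 1 member in place of 2 was called at 24 h against 8 h in siControl cells, 1 in place of 3 for silencing at 8 h, and 0 in place of 1 for silencing in untreated cells. For silencing in untreated cells, quantile normalization gave 2, and median centring, the filter on dim genes and a fit of only the groups compared gave 0 each. A fit of only the groups compared gave 0 at 24 h against 8 h in siControl cells. The filter on dim genes, which kept 17 members, gave 1 at 24 h against 8 h and 2 at 8 h against untreated in siPKCiz cells, where all genes gave 0 and 4. Of 36 called member changes, 29 stayed called with the block, 34 with quantile normalization, 35 with median centring and 31 with the fit of only the groups compared. All 36 stayed called with trended robust moderation and with the mean of probe sets, as did all 27 that the dim filter left to test. Without any 1 array 23 of the 36 stayed called, and 34, 11 and 14 did without replicates 1, 2 and 3. The 10 that stayed called under every alternative in which they were tested were SAMD9 in all 4 TGFβ comparisons, IFIT1 at 8 h and 24 h in siPKCiz, OAS1 at 24 h in both arms, RIGI at 8 h in siControl and SAMD9L at 24 h in siPKCiz cells. Beyond leaving out fewer genes or arrays, the cause of these shifts was not tested. No detection calls were used, so whether the 17 members dimmer than the median probe set lay above background was not tested.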

Other observations

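TNFSF10, which encodes the death ligand TRAIL and is an interferon-stimulated gene outside the 35 members, had 1 array far from the others. It measured 445, 176 and 171 untreated, 74.6, 107 and 115 at 8 h, and 119.9, 111 and 117 at 24 h in siPKCiz cells. In siControl cells it measured 187, 151 and 146 untreated, 64.2, 114 and 107 at 8 h, and 82.1, 105 and 113 at 24 h. Every TGFβ array lay below every untreated array. Untreated replicate 1 of siPKCiz, at 445, stood far above the other untreated arrays of both arms.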
